A study of Homo sapiens with 9 samples.

Results

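Levels of 34 RNAs that encode the glycolytic enzymes and products of hypoxia-inducible genes were compared in MOLT4 cells, a human T-cell acute lymphoblastic leukaemia (T-ALL) line, after 6 h in vehicle or in either of 2 compounds. The genes were chosen by symbol from a given list, made with earlier results of these data known. All 34 have a row among the 23621 gene rows of the expression table. The shares of all tested genes given below are background, and an excess among the 34 was not tested. They are HIF1A itself, 16 glycolytic enzymes and 17 other targets of the hypoxia-inducible factors (HIF). Of the 34, 33 passed the filter for testing, a mean of at least 1 FPKM (fragments per transcript length and library size) over the 9 libraries, and P4HA2 did not. ADM and EGLN3 lay under 1 FPKM on average in 1 group and passed through the other groups.

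The study asked how transcription responds to sunitinib, a multi-target receptor tyrosine kinase inhibitor, and to MI-389, which the series describes as a conjugate with a phthalimide. Such a phthalimide can bind the ubiquitin ligase receptor cereblon. Polyadenylated RNA was sequenced from 3 libraries with vehicle (0.1% DMSO), 3 titled sunitinib and 3 titled MI-389, all of 1 line with no genetic change named in the labels. The labels contradict each other on the treated libraries: those titled MI-389 carry sunitinib at 1 µM in the source field, and those titled sunitinib carry MI-389 at 0.1 µM. The groups are named here by their titles, which the table's column names and the barcode list share, and which compound each group received was not settled by these labels. The doses given differ between the treated groups, so the groups do not compare the compounds at a matched dose. The labels do not state whether the replicates are separate cultures, and the p-values rest on the spread between these libraries, which may be technical.

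Glycolysis converts glucose to pyruvate, and lactate dehydrogenase reduces the pyruvate to lactate when the cell does not oxidise it in mitochondria. HIF is a heterodimer of an oxygen-regulated alpha subunit, such as the product of HIF1A, and the constant beta subunit ARNT. In oxygenated cells prolyl hydroxylases (the EGLN family) mark the alpha subunit for destruction through VHL, so its protein is controlled mainly after the mRNA is made. Stabilised HIF raises transcription of glucose transporters, most glycolytic enzymes, VEGFA and genes of mitophagy by binding the sequence RCGTG (R being A or G). Proliferating T-ALL cells also take up much glucose with oxygen present. The protein of HIF1A was not measured, and only RNA levels are described.

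FPKM values carry no read counts, so the depth of each library is unknown. The lowest non-floor values would put the treated libraries at 1.39 and 1.35 times the depth of the DMSO libraries (titled MI-389 and titled sunitinib). That estimate mixes depth with the scaling between libraries, which is not known. Unexpressed genes sit at a floor between 0.0989 and 0.104 FPKM. Outside the rows of short non-coding RNAs, each library correlated at 0.995 or more with its own group on the log2 scale. All 12 T-lineage markers reached 1 FPKM on average, with sums of 3856 to 4863 FPKM in DMSO, 4126 to 4380 in the titled sunitinib group and 3715 to 3951 in the titled MI-389 group. All 3 myeloid markers, LYZ, CD14 and CSF1R, averaged below 1 FPKM. DMSO replicate 1 was the lowest of the DMSO libraries for 16 of 16 glycolytic enzymes, with a median of 8.54 on the log2(FPKM + 1) scale against 8.82 and 8.85, so results against DMSO are also given without it where it matters. In bulk RNA, fewer cells with a transcript and less transcript per cell cannot be told apart.

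In the values as deposited, RNAs of the whole glycolytic chain were lower in the libraries titled MI-389 than in DMSO. VEGFA, the glucose transporter SLC2A3 and HIF1A were higher. With some other scalings, given below, fewer enzymes passed and the direction of GAPDH changed. At a Benjamini-Hochberg adjusted p under 0.05 in limma, 28 of the 33 tested genes fell, where 28.3% of all 12301 tested genes fell. There were 3 that rose (HIF1A, SLC2A3 and VEGFA), where 28.5% of all tested genes rose, and SLC16A3 and KDM3A did not pass. The fallers included 16 of 16 glycolytic enzymes, with differences between −0.89 and −0.30 and a median of −0.57 in log2(FPKM + 1), against a median of −0.0021 over all tested genes. The other HIF targets spread far more widely, from −2.24 (ADM) to 2.44 (VEGFA), with 12 lower and 2 higher of 16 tested and a median of −0.51. All 28 fallers and all 3 risers had no overlap between the 3 libraries of each group, as 29.7% (lower) and 30.5% (higher) of all tested genes did.

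**Figure D1:**
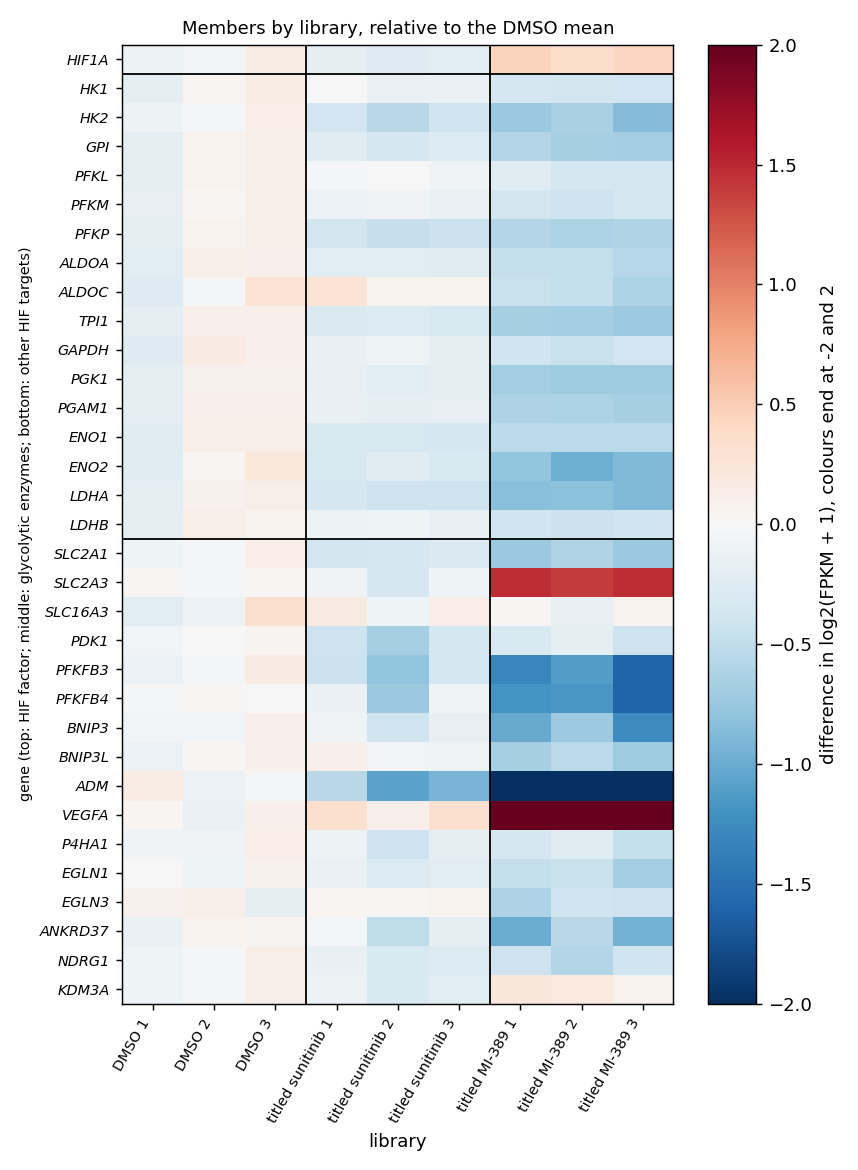
Each tile is 1 library (columns, by titled group and replicate) and 1 of the 33 tested genes (rows); colour is log2(FPKM + 1) minus that gene's mean in DMSO, ending at −2 and 2. The enzyme rows are bluest (lowest) in the libraries titled MI-389 and bluer in DMSO replicate 1 than in the other DMSO libraries, while VEGFA and SLC2A3 stand out as high in the libraries titled MI-389.

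HIF1A mRNA was at 63.2, 65.3 and 75.6 FPKM in the DMSO libraries, at 59.2, 56.8 and 58.3 in those titled sunitinib and at 93.04, 86.7 and 91.4 in those titled MI-389. The 3 groups did not overlap, with the titled MI-389 libraries highest and the titled sunitinib libraries lowest. Against DMSO the rise in the titled MI-389 group was 1.33-fold (log2 difference 0.41, SE 0.07, adjusted p = 0.00071), and the difference of −0.22 in the titled sunitinib group just missed the threshold (adjusted p = 0.0502) and passed it after cyclic loess at −0.10 (adjusted p = 0.0413). In the GENCODE 29 annotation, exons of 16 of the 34 genes overlap exons of a gene on the opposite strand, HIF1A those of HIF1A-AS1. Reads of the overlapping parts cannot be told apart, because the kit keeps no record of strand.

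EGLN1 and EGLN3, the prolyl hydroxylases of the EGLN family among the 34 genes and HIF targets themselves, were lower in the titled MI-389 group. EGLN1, the main oxygen sensor in most cells, was at 18.3, 17.1 and 19.5 FPKM in DMSO and at 12.9, 13.2 and 10.95 in the titled MI-389 group, a difference of −0.53 (adjusted p = 0.000372). EGLN3 was scarce, at 1.93, 2.02 and 1.42 FPKM in DMSO and 0.807, 1.10 and 1.09 in the titled MI-389 group (−0.48, adjusted p = 0.00997). In the titled sunitinib group neither passed, with differences of −0.20 for EGLN1 (95% interval −0.38 to −0.02) and 0.05 for EGLN3 (−0.24 to 0.34).

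The first steps of glycolysis trap glucose in the cell and commit it to breakdown. HK2, the inducible hexokinase, was at 39.6, 41.2 and 46.8 FPKM in DMSO, 32.4, 28.7 and 32.02 in the titled sunitinib group and 24.9, 26.8 and 22.8 in the titled MI-389 group. The 3 groups stepped down without overlap. HK2 was 1.71-fold lower than in DMSO in the titled MI-389 group (−0.75, SE 0.08, adjusted p = 5.06e-05) and 1.37-fold lower in the titled sunitinib group (−0.44, adjusted p = 0.00821). HK1, the constitutive hexokinase, moved less, from 53.5 ± 6.21 FPKM (SD, n = 3) in DMSO to 41.2 ± 0.691 in the titled MI-389 group (−0.36, limma adjusted p = 0.00329). GPI, which isomerises glucose 6-phosphate, fell from 206 ± 23.4 to 131 ± 4.46 FPKM (−0.65, limma adjusted p = 0.0001).

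Of the 3 phosphofructokinase genes, whose product makes the committed step, the platelet-type PFKP was the most abundant per length. PFKP was at 149, 179 and 184 FPKM in DMSO, 131, 122 and 126 in the titled sunitinib group and 113, 109.5 and 112 in the titled MI-389 group, again 3 groups without overlap. It fell in both comparisons with DMSO, by 0.60 in the titled MI-389 group (adjusted p = 0.000128) and by 0.42 in the titled sunitinib group (adjusted p = 0.00754). The liver-type PFKL and muscle-type PFKM had smaller differences from DMSO in the titled MI-389 group, −0.30 and −0.38, which passed, and −0.04 and −0.11 in the titled sunitinib group, which did not.

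The middle of the pathway splits the hexose and oxidises the triose. ALDOA, the main aldolase here, was at 1018, 1298 and 1278 FPKM in DMSO and 854, 858 and 805 in the titled MI-389 group (−0.51, adjusted p = 0.000944). TPI1, which interconverts the triose phosphates, fell from 1232 ± 143 to 760.3 ± 16.7 FPKM (SD, n = 3; −0.69, limma adjusted p = 7.68e-05). The much scarcer aldolase ALDOC, at 41.3 FPKM in DMSO, also fell (−0.52, adjusted p = 0.00525), although in the titled sunitinib group its difference from DMSO was 0.14 (adjusted p = 0.463), the only enzyme above 0 there.

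GAPDH, the triose dehydrogenase that often serves as a reference gene, was at 8463, 11318 and 10924 FPKM in DMSO, 9201, 9544 and 9009 in the titled sunitinib group and 7674, 7494 and 7759 in the titled MI-389 group. The titled MI-389 libraries were below every DMSO library, and the titled sunitinib libraries lay within the DMSO range. The difference in the titled MI-389 group, −0.41 (adjusted p = 0.00894), became 0.04 after cyclic loess normalization (adjusted p = 0.0921), so the direction of GAPDH depended on the scaling. PGK1, which makes the first ATP of the pathway, was at 866, 1039 and 1042 FPKM in DMSO, 875, 849.5 and 851 in the titled sunitinib group and 602, 594 and 597 in the titled MI-389 group, and its fall of 0.71 (adjusted p = 3.41e-05) was among the larger ones. PGAM1 fell by 0.63 (adjusted p = 0.000116), but PGAM4 has a nearly identical sequence and its own row, so how reads were split between the genes is uncertain.

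The enolases make phosphoenolpyruvate. ENO1, the ubiquitous form, fell from 1982 ± 270.1 to 1354 ± 6.97 FPKM (SD, n = 3; −0.54, limma adjusted p = 0.000743). ENO2, the neuronal form that HIF also induces, was at 58.3, 70.5 and 79.5 FPKM in DMSO, 55.2, 58.03 and 55.4 in the titled sunitinib group and 39.3, 34.4 and 36.97 in the titled MI-389 group. It had the lowest difference of the 16 enzymes in the titled MI-389 group (−0.89, SE 0.10, adjusted p = 5.84e-05).

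The lactate dehydrogenase subunits act at the end of the pathway. LDHA, the subunit that favours lactate production, is a classical HIF target, and LDHB is not usually counted as one. The windows below, from the RefSeq promoter table (GRCh38.p14), are the 250 bases before an annotated start of each gene, read along the gene's strand, and are shown because these subunits serve the same reaction. Capitals mark ACGTG or GCGTG, the HIF core, on either strand; CACGTG, which reads the same on both strands, holds ACGTG on each. The LDHA window (chr11:18394313-18394562, plus strand) has 3 such runs, 2 of them CACGTG, and the LDHB window (chr12:21657843-21658092, minus strand) has 0. A window at another annotated LDHA start, not printed, has 1 run. The number of runs and the size of a difference did not go together throughout: SLC2A1 and PGAM1 have 0 runs and differences of −0.70 and −0.63 in the titled MI-389 group, and PFKL has 1 run and a difference of −0.30.
LDHA: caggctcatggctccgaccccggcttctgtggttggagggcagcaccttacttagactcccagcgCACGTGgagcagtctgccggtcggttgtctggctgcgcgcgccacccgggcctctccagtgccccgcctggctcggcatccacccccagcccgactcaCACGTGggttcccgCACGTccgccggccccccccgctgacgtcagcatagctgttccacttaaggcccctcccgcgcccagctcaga
LDHB: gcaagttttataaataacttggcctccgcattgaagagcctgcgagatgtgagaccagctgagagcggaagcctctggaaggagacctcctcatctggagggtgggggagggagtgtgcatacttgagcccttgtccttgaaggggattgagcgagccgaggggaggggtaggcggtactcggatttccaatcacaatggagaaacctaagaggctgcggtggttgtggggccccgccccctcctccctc

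LDHA was at 1325, 1616 and 1657 FPKM in DMSO, 1192, 1139 and 1146 in the titled sunitinib group and 858, 865 and 823 in the titled MI-389 group. The groups did not overlap and stepped down in that order. LDHA fell 1.81-fold in the titled MI-389 group (−0.85, SE 0.08, adjusted p = 2.63e-05) and by 0.40 in the titled sunitinib group (adjusted p = 0.012). LDHB, the more abundant subunit per length, was at 2368, 2923 and 2842 FPKM in DMSO, 2506, 2535 and 2405 in the titled sunitinib group and 2039, 2003 and 2039.7 in the titled MI-389 group. Its difference in the titled MI-389 group was −0.41 (adjusted p = 0.00187), and in the titled sunitinib group it did not pass (−0.12, adjusted p = 0.325). After cyclic loess the LDHA difference in the titled MI-389 group was −0.50 and that of LDHB −0.02 (adjusted p = 0.305).

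**Figure D2:**
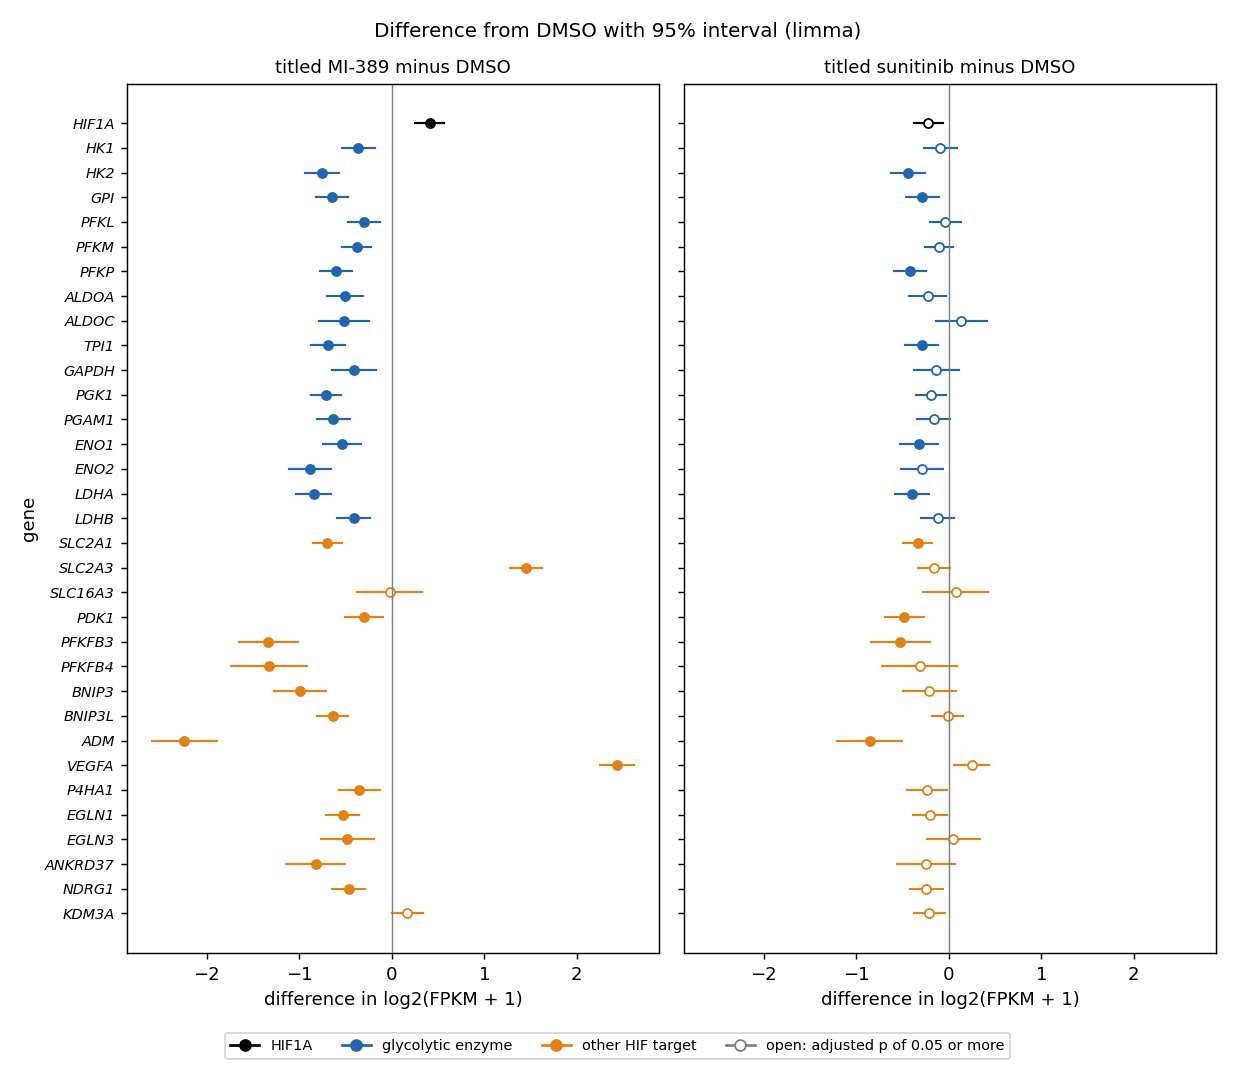
Points are limma differences from DMSO in log2(FPKM + 1) for the 33 tested genes, with 95% intervals, for the libraries titled MI-389 (left) and titled sunitinib (right); filled points passed an adjusted p of 0.05. On the left all 16 enzymes lie between −0.89 and −0.30 and the other HIF targets reach from −2.24 to 2.44, and on the right 10 genes passed, all below 0.

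Abundant RNAs as a whole were lower in the libraries titled MI-389, and many of the enzymes are among the most abundant RNAs of the cell. For the 362 tested genes with a mean of 500 FPKM or more, the median difference from DMSO was −0.34, against 0.05 for the 6825 genes between 10 and 100 FPKM. The 8 enzymes at 500 FPKM or more had a median of −0.59, and the 6 enzymes between 10 and 100 FPKM one of −0.45. Cyclic loess, which levels differences that follow abundance, took the median of the abundant genes to 0.03 and that of the 8 enzymes to −0.24, while the 6 less abundant enzymes stayed at −0.46. After it 14 of 16 enzymes passed as lower, without GAPDH and LDHB, where 32.4% of all tested genes did (28.3% as deposited). After rescaling to the spike-in RNAs, which were added per cell number, 11 of 16 passed as lower, where 13.6% of all tested genes did. The enzymes HK1, PFKL, PFKM, GAPDH and LDHB did not pass. The rescaling lowered DMSO replicate 1 by 0.19 in log2, while the offsets of the other libraries lay between −0.095 and 0.052. GAPDH, ENO1 and LDHB lay above the most abundant spike-in, at 1523 FPKM.

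**Figure D3:**
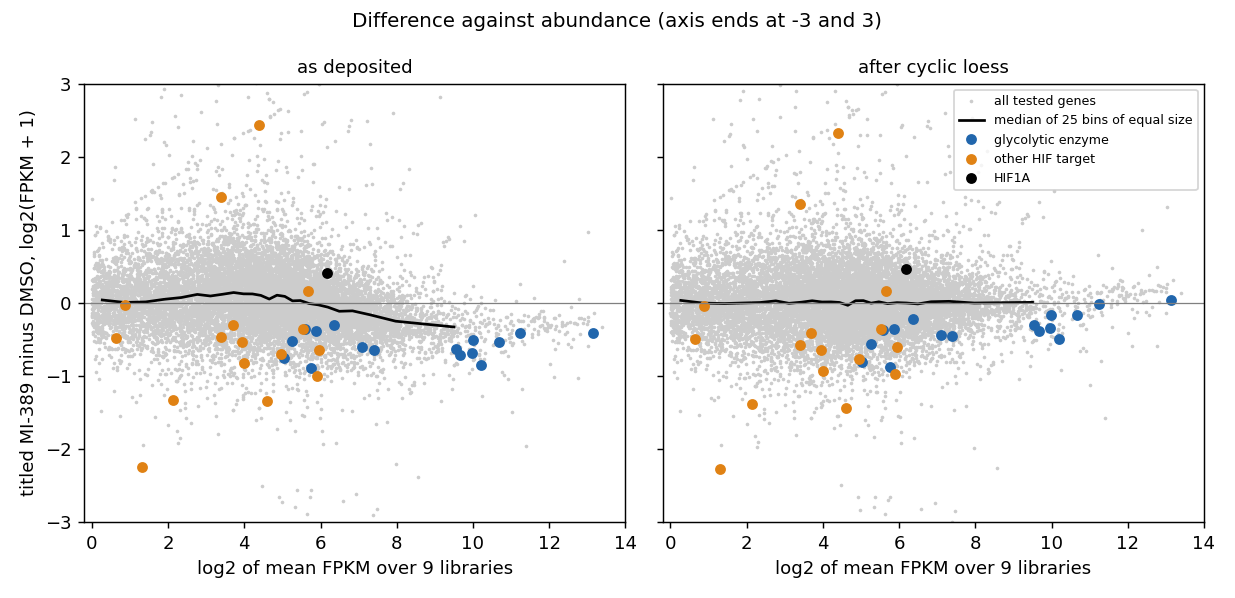
Each grey point is 1 tested gene, with the log2 of its mean FPKM over the 9 libraries (x axis) against its difference from DMSO in log2(FPKM + 1) for the libraries titled MI-389, as deposited and after cyclic loess, with the enzymes, other targets and HIF1A coloured and a line for the median in 25 bins; the y axis ends at −3 and 3. As deposited the cloud bends below 0 at high abundance (median −0.34 at 500 FPKM or more) with most enzymes lower still. After cyclic loess the cloud is level and 14 of 16 enzymes pass as lower, where 32.4% of all tested genes do.

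Transporters carry glucose in and lactate out, and the 2 glucose transporters moved in opposite directions. SLC2A1 (GLUT1), the widespread basal transporter and a HIF target, was at 36.2, 37.6 and 42.5 FPKM in DMSO, 29.7, 30.3 and 31.4 in the titled sunitinib group and 22.6, 25.2 and 22.8 in the titled MI-389 group. It fell in both treated groups, by 0.70 in the titled MI-389 group (adjusted p = 2.88e-05) and by 0.34 in the titled sunitinib group (adjusted p = 0.0115). SLC2A3 (GLUT3), a high-affinity transporter, was at 6.53, 6.24 and 6.53 FPKM in DMSO, 6.10, 4.92 and 5.97 in the titled sunitinib group and 19.8, 18.6 and 19.7 in the titled MI-389 group. Every titled MI-389 library was above every other library, a 3.01-fold rise over DMSO (1.45, SE 0.08, adjusted p = 7.63e-07). SLC16A3 (MCT4), a lactate exporter, was scarce, at 1.41, 1.56 and 2.46 FPKM in DMSO and 1.81, 1.48 and 1.92 in the titled MI-389 group, and did not pass (−0.02, 95% interval −0.37 to 0.33). Its exons overlap those of CSNK1D on the other strand, a gene at 97.1 FPKM on average.

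The regulators of flux PFKFB3 and PFKFB4 had lower differences from DMSO in the titled MI-389 group than any of the 16 enzymes. PFKFB3, which makes the activator of phosphofructokinase, was at 32.1, 33.8 and 39.4 FPKM in DMSO, 25.8, 19.9 and 27.04 in the titled sunitinib group and 13.6, 15.6 and 10.9 in the titled MI-389 group. The groups stepped down without overlap, 2.63-fold in the titled MI-389 group (−1.34, SE 0.14, adjusted p = 4.24e-05) and 1.45-fold in the titled sunitinib group (−0.52, adjusted p = 0.0324). PFKFB4, a related isozyme, was at 6.18, 6.41 and 6.26 FPKM in DMSO, 5.67, 3.35 and 5.96 in the titled sunitinib group and 2.16, 2.24 and 1.39 in the titled MI-389 group. It fell 3.25-fold in the last (adjusted p = 0.000204), and in the titled sunitinib group replicate 2 alone was far below the DMSO libraries (adjusted p = 0.256).

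PDK1, the kinase that shuts pyruvate out of the mitochondrial oxidation pathway, was at 14.9, 15.7 and 16.2 FPKM in DMSO, 11.4, 9.42 and 11.98 in the titled sunitinib group and 12.5, 13.7 and 11.4 in the titled MI-389 group. Both treated groups lay below DMSO, with the lower mean in the titled sunitinib group. The falls were 0.48 there (adjusted p = 0.00945) and 0.30 in the titled MI-389 group (adjusted p = 0.0198). The call in the titled MI-389 group was lost with spike-in rescaling (adjusted p = 0.18) and without the filter on low values (adjusted p = 0.0618).

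BNIP3 and BNIP3L encode mitochondrial outer membrane receptors that direct mitochondria to autophagy. BNIP3 was at 72.9, 72.8 and 81.1 FPKM in DMSO, 71.5, 57.3 and 67.6 in the titled sunitinib group and 37.2, 45.3 and 31.1 in the titled MI-389 group. Its level in the titled MI-389 libraries was 1.996-fold lower than in DMSO (−0.99, SE 0.13, adjusted p = 0.000136), and the titled sunitinib libraries, all below DMSO with replicate 2 lowest, did not pass (−0.21, adjusted p = 0.28). BNIP3L fell from 70.6 ± 5.22 to 44.9 ± 2.90 FPKM (SD, n = 3; −0.64, limma adjusted p = 7.22e-05), with 70.1 ± 4.67 FPKM in the titled sunitinib group (−0.01).

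The secreted factors held the extremes in both directions. ADM, which encodes the vasodilator peptide adrenomedullin, was at 5.49, 4.42 and 4.76 FPKM in DMSO, 2.99, 1.81 and 2.08 in the titled sunitinib group and 0.157, 0.415 and 0.163 in the titled MI-389 group. The last values lie near the floor, so no fold is given there, and the difference on the log2(FPKM + 1) scale was −2.24 (SE 0.16, adjusted p = 3.73e-06). In the titled sunitinib group ADM fell 2.14-fold (−0.85, adjusted p = 0.00775), the lowest log2 difference of the 33 genes in that comparison. VEGFA, which encodes the main angiogenic growth factor, was at 7.86, 6.87 and 8.28 FPKM in DMSO, 9.75, 8.30 and 9.81 in the titled sunitinib group and 47.99, 45.6 and 44.1 in the titled MI-389 group. Its 5.98-fold rise over DMSO in the titled MI-389 libraries was the largest of the 33 (2.44, SE 0.08, adjusted p = 5.06e-08).

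In the titled sunitinib group VEGFA was above every DMSO library, but the difference of 0.25 (95% interval 0.06 to 0.43) missed the threshold at an adjusted p of 0.0636. It passed after median centring (adjusted p = 0.0104), quantile normalization (adjusted p = 0.0049) and cyclic loess (adjusted p = 0.0061). ADM and BNIP3, both fallers, are shown with their promoter windows from the same table and marked in the same way. The ADM window (chr11:10304823-10305072, plus strand) has 1 run of the core and the BNIP3 window (chr10:131981924-131982173, minus strand) has 5. The table has no entry for VEGFA, SLC2A3, BNIP3L or NDRG1.
ADM: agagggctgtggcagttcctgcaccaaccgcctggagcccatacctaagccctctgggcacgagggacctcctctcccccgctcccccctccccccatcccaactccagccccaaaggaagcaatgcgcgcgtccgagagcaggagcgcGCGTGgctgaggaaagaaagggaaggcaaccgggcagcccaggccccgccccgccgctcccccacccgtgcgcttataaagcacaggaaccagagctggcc
BNIP3: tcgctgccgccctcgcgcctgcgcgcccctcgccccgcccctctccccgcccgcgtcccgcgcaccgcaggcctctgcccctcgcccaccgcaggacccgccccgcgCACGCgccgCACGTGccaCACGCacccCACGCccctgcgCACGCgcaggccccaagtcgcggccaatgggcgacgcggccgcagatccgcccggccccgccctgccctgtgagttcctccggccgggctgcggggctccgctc

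**Figure D4:**
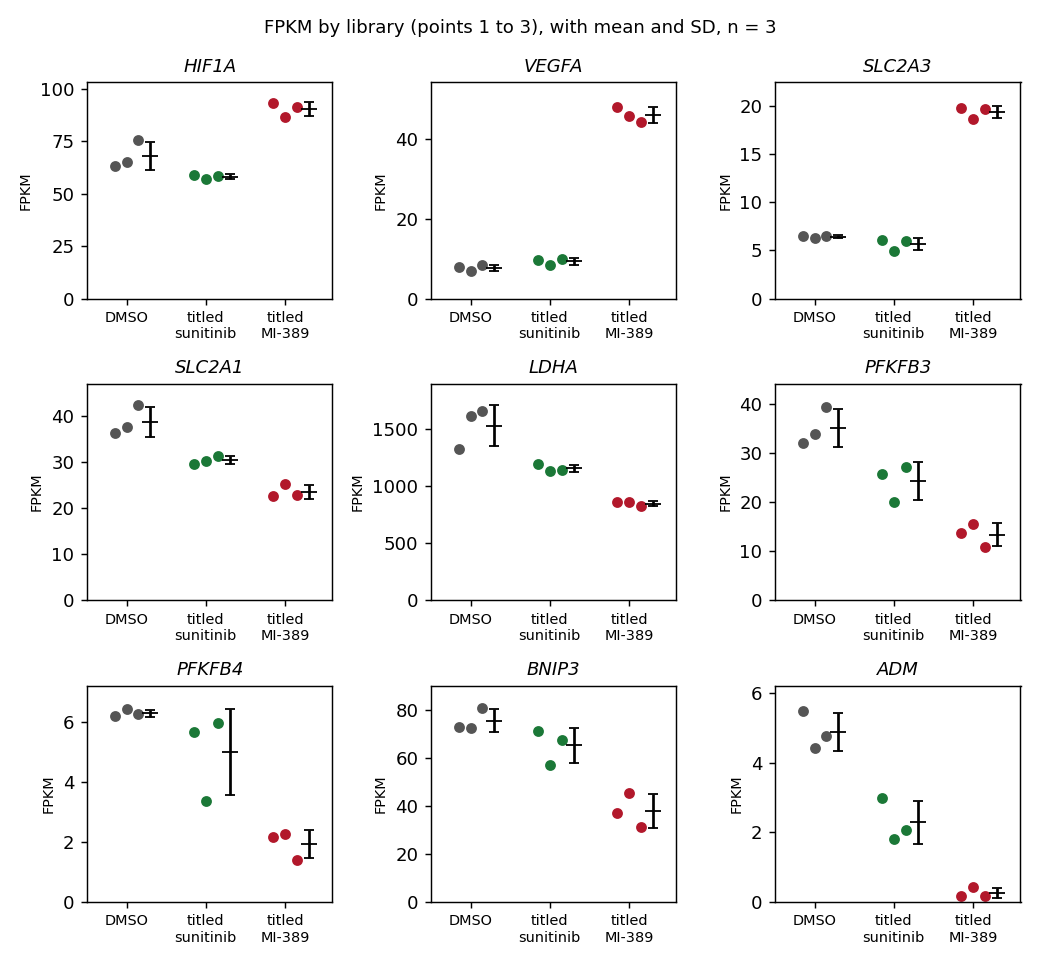
Points are the FPKM of single libraries (y axes, linear from 0) in the 3 groups for 9 genes that carry the main differences, with the group mean and SD (n = 3) beside them. HIF1A, VEGFA and SLC2A3 are highest in the libraries titled MI-389, and SLC2A1, LDHA and PFKFB3 step down from DMSO to titled sunitinib to titled MI-389 without overlap.

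The remaining targets act on collagen, chromatin and stress. ANKRD37, an ankyrin-repeat protein and also a HIF target, was at 18.2, 21.1 and 20.8 FPKM in DMSO and 9.62, 13.4 and 9.96 in the titled MI-389 group (−0.82, adjusted p = 0.000785). NDRG1, a stress-response gene, fell from 12.4 ± 0.997 to 8.71 ± 0.681 FPKM (SD, n = 3; −0.47, limma adjusted p = 0.000851). P4HA1, the collagen prolyl 4-hydroxylase subunit, fell by 0.35 (adjusted p = 0.0119), a call lost after spike-in rescaling (adjusted p = 0.116) and without replicate 3 of the titled MI-389 group (adjusted p = 0.0523). P4HA2, the related subunit, was between 0.103 and 0.166 FPKM in all 9 libraries, near the floor. KDM3A, a histone H3 lysine demethylase, was at 47.9, 49.7 and 54.9 FPKM in DMSO, 47.4, 40.98 and 43.1 in the titled sunitinib group and 59.7, 58.3 and 53.6 in the titled MI-389 group. Neither treated group passed against DMSO, with adjusted p of 0.0781 (titled MI-389) and 0.0742 (titled sunitinib).

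In the libraries titled sunitinib most of these genes lay slightly below DMSO, and fewer passed. This comparison shares its DMSO libraries with the first one, so they are not independent, and each is given by its own values. Of 33 tested genes 10 fell, where 16.9% of all tested genes fell, and 0 rose, where 2.37% did; at an unadjusted p under 0.05 in limma, 1 was higher (VEGFA). The fallers were the enzymes HK2, GPI, PFKP, TPI1, ENO1 and LDHA and the targets SLC2A1, PDK1, PFKFB3 and ADM. The median difference was −0.21 for the 16 enzymes and −0.22 for the 16 tested other targets, against −0.10 over all tested genes. Of the 33 differences 29 were below 0, in a comparison where most tested genes were, since their median was below 0. After cyclic loess the enzyme median was −0.09, against 0.0017 over all tested genes. GPI fell from 206 ± 23.4 to 168 ± 5.15 FPKM (SD, n = 3; limma adjusted p = 0.0336) and TPI1 from 1232 ± 143 to 1001 ± 17.97 (limma adjusted p = 0.0336). ENO1 was at 1589.7, 1582 and 1547 FPKM, all below the DMSO libraries at 1670.4, 2139 and 2137, a difference of −0.32 (adjusted p = 0.0358).

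These calls depended on single libraries and on the scaling. Without DMSO replicate 1, 21 of the 33 genes passed as lower, 14 of them enzymes, while the share of all tested genes called lower went from 16.9% to 32.1%. Without any 1 of the other 5 libraries compared, 5 or 6 of the 33 passed, where 6.55% to 11.4% of all tested genes were called lower. After rescaling to the spike-in RNAs 1 of 33 passed in limma (ADM) and 0 of 16 enzymes did, with 2 of them lower at an unadjusted p under 0.05. Of all tested genes 0.561% were called lower there. This rescaling lowered DMSO replicate 1 by 0.19 in log2, more than any other library. In the titled sunitinib group replicate 2 was the lowest library for 14 of 16 tested other HIF targets (all but SLC2A1 and BNIP3L) but for 8 of 16 enzymes, with a median of 3.66 in log2(FPKM + 1) over those targets against 3.89 and 3.88. PFKFB4, BNIP3 and ANKRD37 in that library were at 3.35, 57.3 and 13.8 FPKM. In the titled MI-389 group replicate 2 was the highest library for 11 of the 16 targets.

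Set directly against the libraries titled sunitinib, and with the doses in the labels not matched, those titled MI-389 had 23 genes lower, where 20.3% of all tested genes were lower, and 4 higher, where 36% were. The 4 were HIF1A, SLC2A3, VEGFA and KDM3A. KDM3A, which passed against DMSO in neither group, differed between the treated groups by 0.38 (adjusted p = 0.00179). Of the enzymes 13 of 16 were lower, with a median of −0.30, and PFKP, GAPDH and ENO1 did not pass (adjusted p = 0.0676, 0.0519 and 0.0683). After spike-in rescaling 8 of 16 were lower, where 13.8% of all tested genes were. Other scalings turned the direction of ENO1 (0.090 and called higher after quantile normalization, 0.047 after cyclic loess) and GAPDH (0.11 and called higher after cyclic loess). LDHB stood at 0.0020 after cyclic loess. BNIP3L, at 75.5, 67.8 and 67.1 FPKM in the titled sunitinib group and 44.01, 48.2 and 42.6 in the titled MI-389 group, differed by −0.63 (adjusted p = 7.83e-05). PDK1 was the one faller of the first comparison with a positive difference here that did not pass (0.18, 95% interval −0.03 to 0.39).

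Ratios of related genes within a library do not move with a scaling that multiplies a whole library by 1 factor, although normalization by abundance, such as cyclic loess, can move them. The LDHA to LDHB ratio was 0.560, 0.553 and 0.583 in the DMSO libraries, 0.475, 0.449 and 0.476 in the titled sunitinib group and 0.421, 0.432 and 0.403 in the titled MI-389 group. These groups did not overlap, with the highest ratio in DMSO. The HK2 to HK1 ratio averaged 0.798 in DMSO, 0.621 in the titled sunitinib group and 0.603 in the titled MI-389 group, so HK2 lost share in both treated groups. The SLC2A3 to SLC2A1 ratio was 0.180, 0.166 and 0.154 in DMSO and 0.875, 0.739 and 0.866 in the titled MI-389 group, a log2 difference of 2.31, and averaged 0.186 in the titled sunitinib group.

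The PFKP to PFKL ratio averaged 1.92 in DMSO, 1.47 in the titled sunitinib group and 1.56 in the titled MI-389 group. For ENO2 to ENO1 the log2 difference from DMSO was −0.36 in the titled MI-389 group and 0.03 in the titled sunitinib group. ALDOC to ALDOA differed from DMSO by −0.02 in the titled MI-389 group and by 0.37 in the titled sunitinib group. Over 10 ratios and 3 comparisons, no overlap gave a two-sided exact permutation p = 0.1, the smallest that 3 against 3 libraries can give, and a Benjamini-Hochberg adjusted p of 0.158, so no ratio could pass 0.05.

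**Figure D5:**
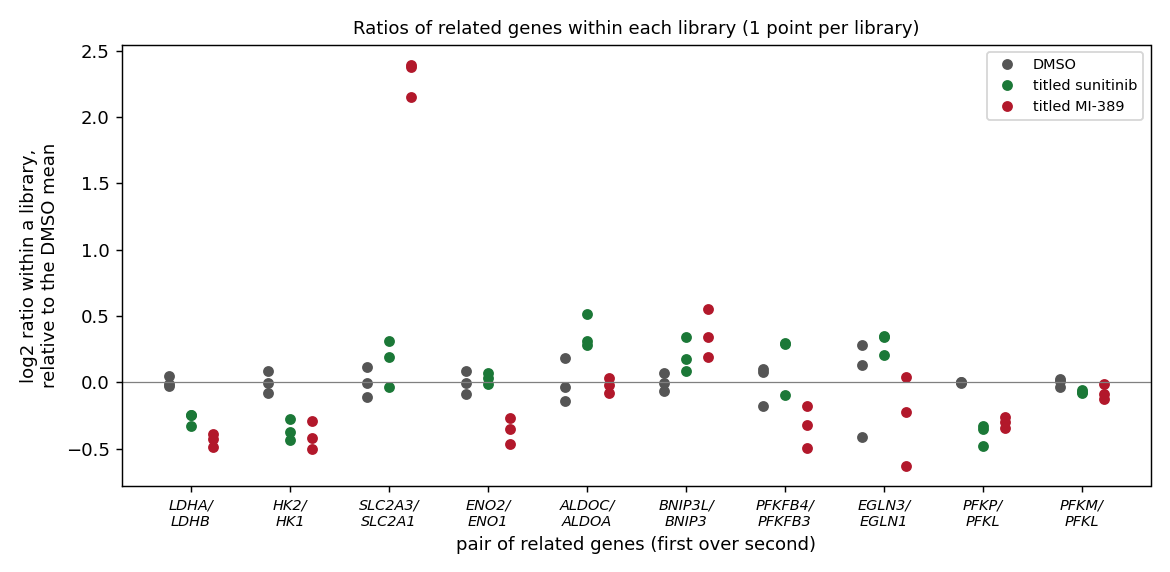
Points are single libraries, coloured by group: the log2 ratio of the FPKM of 2 related genes (x axis, 10 pairs) minus its mean in DMSO (y axis). The SLC2A3 to SLC2A1 ratio is higher in the titled MI-389 libraries than in all others, and LDHA to LDHB and HK2 to HK1 are highest in DMSO.

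Other genes of the same pathways, from lists of genes that are not among the 34, are given for the background. These lists too were chosen with earlier results of these data known, and an excess in them was not tested. Of 33 tested genes of glycolysis, pyruvate metabolism and the pentose phosphate pathway (44 in the table), 16 were lower and 4 higher in the titled MI-389 group than in DMSO, where 28.3% and 28.5% of all tested genes were, with a median of −0.25. SLC16A1 (MCT1), a lactate and pyruvate transporter, fell from 110.0 ± 7.18 to 57.1 ± 2.19 FPKM (SD, n = 3; −0.93, limma adjusted p = 1.77e-06). PKM, the pyruvate kinase that completes glycolysis, fell from 582 ± 83.4 to 363 ± 6.61 FPKM (−0.67, limma adjusted p = 0.000218). PGD, an enzyme of the pentose phosphate pathway, and PDK3, a pyruvate dehydrogenase kinase, fell by 0.64 and 0.60. Among the 4 higher genes was C12orf5 (TIGAR), which lowers the activator that PFKFB3 makes (0.49, adjusted p = 0.000721). In the titled sunitinib group 7 of the 33 were lower, near the 16.9% of all tested genes, and 0 higher in limma (0 higher also at an unadjusted p under 0.05), with the lowest difference in SLC16A1 (−0.37, adjusted p = 0.0043).

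Of 30 tested genes among other HIF pathway members and targets (42 in the table), 19 were lower and 5 higher in the titled MI-389 group, where 28.3% and 28.5% of all tested genes were, with a median of −0.28. AK4, a mitochondrial adenylate kinase, fell from 7.57 ± 0.848 to 2.11 ± 0.437 FPKM (−1.47, limma adjusted p = 1.58e-05), and HILPDA, a lipid droplet protein, from 70.4 ± 6.40 to 25.5 ± 0.998 (−1.43, limma adjusted p = 7.94e-07). BHLHE40, a transcription repressor, and JMJD6, a hydroxylase, fell by 0.94 and 0.91. STC2, which encodes the secreted glycoprotein stanniocalcin 2, rose from 1.11 ± 0.125 to 11.4 ± 0.696 FPKM (2.56, limma adjusted p = 9.8e-07). RIOK3, an atypical kinase, rose from 26.6 ± 0.725 to 48.1 ± 0.861 (0.83, limma adjusted p = 8.6e-06). In the titled sunitinib group 9 of the 30 were lower (16.9% of all tested genes) and 0 higher in limma (1 higher at an unadjusted p under 0.05), AK4 (−0.44) and HILPDA (−0.39) with the lowest differences.

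The regulators around HIF1A had smaller differences. ARNT, the beta subunit, differed from DMSO by −0.13 in the titled MI-389 group (adjusted p = 0.233) and VHL, the ubiquitin ligase subunit, by −0.12 (adjusted p = 0.166). HIF1AN, the asparaginyl hydroxylase that blocks HIF activity, rose by 0.26 (adjusted p = 0.00363), and EGLN2, the remaining prolyl hydroxylase of the EGLN family, fell by 0.26 (adjusted p = 0.0208). All 4 differences were smaller in size than that of EGLN1.

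Promoter windows were searched for the HIF core, which describes sequence and not binding, and no test was made. Of the 34 genes, 30 matched the RefSeq table with 58 windows of 250 bases; several genes have more than 1 start, and some of their windows nearly coincide. ACGTG stood on either strand in 36.2% of these windows and in 18.5% of all 35116. GCGTG stood in 32.8% against 32.2%, and either form in 58.6% against 43.2%. CACGTG, which other factors such as MYC also bind, stood in 13.8% against 6.34%. ACGTG was in 38.9% of the 36 enzyme windows and 35% of the 20 windows of other targets, and either form in 52.8% and 70.0%. At the level of genes, 14 of 16 enzymes and 10 of 13 matched other targets had at least 1 window with either form, as did 47.4% of all 27305 genes of the table, but a gene with more windows has more chances to hold one. The genes without one were the enzymes LDHB and PGAM1 and the targets SLC2A1, EGLN3 and P4HA2.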

How the data were processed

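The values are FPKM per gene and library, labelled as normalized and deposited in 1 table for all 9 libraries. Every scaling tried here, spike-in rescaling included, was applied on top of that normalization. Per the submitters' processing notes the authors used HISAT and Cufflinks 2.0.0 with the build hg19; annotation, counting settings and scaling between libraries were not given in the sources used here. Per the labels, the SMARTer v4 kit and ERCC spike-in RNAs added by cell number were used. Members and lists were chosen with earlier results of these data known.

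Of 23621 gene rows (92 spike-in rows apart), 12301 averaging 1 FPKM or more were fitted as log2(FPKM + 1) in limma 3.58.1 (R 4.3.3, empirical Bayes with a variance trend). The 3 groups of 3 libraries shared 1 fit. Tests were two-sided with Benjamini-Hochberg adjustment over all tested genes, and a call is an adjusted p under 0.05. Folds are ratios of mean FPKM; log2 differences understate changes of low genes. The fit was also run on simulated data with independent noise for each gene. Those data hold no shift shared by the genes of a library, so that run cannot speak for calls that depend on single libraries.

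All members could be named; of the other pathway genes, up to 4 higher and 4 lower called genes with the largest differences per list, and PKM, ARNT, VHL, HIF1AN, EGLN2 and SLC16A1. Promoter windows came from a RefSeq table on GRCh38.p14. Exon overlaps were taken from GENCODE 29 coordinates. Both are on another build than the hg19 of the files, and no other coordinates were used. Alternatives changed the pseudocount, filter, scaling, libraries fitted, variance trend and replicate block, and left out each library. A fit without 254 rows of short non-coding RNAs was added after seeing the data.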

Additional observations from a re-analysis of the deposited data

How the results depend on the processing

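The files give no depth, so precision rests on 3 libraries a group. Exchanging the compound names by the source field refits nothing and only exchanges the names. Against DMSO, the libraries titled MI-389 kept 3 members higher under every scaling and left-out library except 4 after cyclic loess, quantile normalization, spike-in rescaling and without DMSO replicate 3 (KDM3A added), and 21 to 28 members lower; the enzymes called lower numbered 11 after spike-in rescaling, 14 after cyclic loess and 15 without the filter. Of all tested genes, 13.6% were called lower after spike-in rescaling, 32.4% after cyclic loess and 13.3% without the filter. Over member results and alternatives in this comparison, 666 kept direction and side of the threshold, 15 lost and 4 gained a call and 4 changed sign. The enzyme median was −0.36 after cyclic loess, GAPDH 0.041; SLC16A3, never called, was at 0.048 with spike-in rescaling and −0.12 to 0.14 with 1 library left out. Other scalings moved the share of higher calls over all genes from 50.2% to 39.4% (median centring) and 69.8% (spike-in rescaling), from 63.9% to 40.3%, 46.1% and 50.2% between the treated groups (median centring, quantile normalization, cyclic loess), and from 12.3% to 40.5%, 46.1%, 48.6% and 58.2% for the titled sunitinib group against DMSO (these and spike-in rescaling). The cause of each change was not tested.

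For the titled sunitinib group against DMSO, 579 results kept direction and side, 56 lost and 33 gained a call and 21 changed sign. The calls over all genes, 2370, became 1423 without the filter, 3677 after quantile normalization, 3814 after cyclic loess, 165 after spike-in rescaling and 1225 with 6 libraries alone, and 929 (without titled sunitinib replicate 2) to 4244 (without DMSO replicate 1) with 1 library left out, 1572 without DMSO replicate 2, 1584 without DMSO replicate 3, 1529 without titled sunitinib replicate 1 and 995 without its replicate 3. The enzymes called lower, 6, became 3 without the filter, 0 after spike-in rescaling, 2 with 6 libraries alone, and 2 to 14 with 1 library left out. Other targets called higher, 0, became 1 (VEGFA) after median centring, quantile normalization, cyclic loess and without short non-coding RNAs; those called lower, 4, became 1 after spike-in rescaling and 7 without short non-coding RNAs. Signs changed for uncalled genes: PFKL to 0.051, 0.091, 0.087 and 0.081 (median centring, quantile normalization, cyclic loess, spike-in rescaling) and BNIP3L to 0.077, 0.10, 0.11 and 0.11 in the same order. HK1 went to 0.018, 0.018 and 0.024 and PFKM to 0.011, 0.0096 and 0.011 under the last 3 scalings. With 1 library left out PFKL ranged from −0.13 to 0.022, BNIP3L from −0.066 to 0.039, SLC16A3 from −0.026 to 0.24 and EGLN3 from −0.049 to 0.11. Between the treated groups 640 results kept direction and side, 21 lost and 22 gained a call and 6 changed sign: the enzyme median was −0.47 after median centring, 1 enzyme was called higher after quantile normalization (ENO1, 0.090) and 1 after cyclic loess (GAPDH, 0.11), ENO1 and LDHB stood at 0.047 and 0.0020 after cyclic loess, PDK1 at −0.030 and −0.011 after quantile normalization and cyclic loess, and 8 enzymes were called lower after spike-in rescaling. Of all tested genes 13.8% were called lower between the treated groups after spike-in rescaling. Without a pseudocount the PFKFB4 to PFKFB3 log2 ratio differed by −0.33 (titled MI-389 against DMSO) and −0.49 (between treated groups). The EGLN3 to EGLN1 log2 ratio differed by −0.57 between treated groups. With a pseudocount of 5 FPKM these 3 differences changed sign, to 0.42, 0.15 and 0.062 in the same order.

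Whether the replicate numbers pair the libraries was not settled. Deviations of same-numbered libraries correlated at −0.04 to 0.11, and those of differently numbered libraries at −0.22 to 0.13. With the replicate block, 3 enzymes were called lower and 1 other target higher (VEGFA) in the titled sunitinib group, and 6 members in all were lower. Of all tested genes 13.8% were lower and 1.98% higher there. Against DMSO the titled MI-389 group had the same counts of members as without the block.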
